A study of Mus musculus with 30 samples.

Results

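Interferon-stimulated genes are the genes that cells switch on when an interferon binds its receptor. In the count table of 21841 genes from 30 mammary tumors, 39 interferon-stimulated genes and their regulators were found by symbol, and all 39 were present as rows. Rows were matched to the list by name, not by measured values, but the list was chosen with earlier results of these data known. 37 of the 39 genes passed the filter on low counts and were tested among 13663 genes. The 2 that did not were Mx1, with 42 reads over 10 libraries, and Mx2, with no reads in any of the 30 libraries. In a single library 0 reads allow up to 3 (0.215 to 0.302 CPM, counts scaled to a common effective library size). The 30 libraries together set a tighter upper bound for Mx2.

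The tumors arose spontaneously in the mammary glands of a transgenic mouse line, FVB/N-Tg(MMTV-PyVT)634Mul/J (MMTV-PyMT), in which the mouse mammary tumor virus promoter drives the polyoma virus middle T antigen in the mammary epithelium. All 30 mice carried the transgene and their genotype label was WT. There were 6 groups of 5 mice, with 1 tumor library from each mouse: a vehicle group, a group for each of 3 agents alone, and a pair of combinations. The agents were gemcitabine, 5-fluorouracil (5-FU) and KCL-HO-1i, and the combinations, written KCL-HO-1i/gemcitabine and KCL-HO-1i/5-FU, joined the last to either of the others. The enzyme heme oxygenase-1 (HO-1), which degrades heme, is what KCL-HO-1i inhibits, whereas the other agents are nucleoside and base analogs used as chemotherapy. Per the labels, treatment lasted 72 h up to tumor collection and was given by intraperitoneal injection. The dose of gemcitabine was 64 mg/kg with an interval of 7 days, that of 5-FU was 40 mg/kg with an interval of 4 days, and KCL-HO-1i was given each day at 25 µmol/kg. The study's text describes a shorter treatment and a lower gemcitabine dose, a difference that could not be settled here. RNA was taken from whole tumors, so fewer cells of a type and less RNA per cell cannot be told apart.

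Libraries held 10067577 to 13622264 counts (mean 12237933 ± 1026875, SD, n = 30). Mitochondrial genes took 1.44 to 9.69% of the counts. Markers of mammary epithelium were read in every group, with a summed level of 2472 to 5689 CPM per tumor over 7 genes. Markers of tissue around the gland varied widely: the 7 adipocyte markers summed to between 18.6 and 5947 CPM. The labels also carry 13 mouse codes, whose meaning was not stated, and 8 of them are shared by several tumors.

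Interferons are secreted proteins of 3 families. Type I and type III interferons signal through receptor-bound kinases to a complex that contains STAT2 and IRF9 and binds the interferon-stimulated response element (ISRE) of target promoters. Interferon-gamma, the type II interferon made by T cells and NK cells, acts mainly through the gamma-activated site (GAS), and its early targets include IRF1 and guanylate-binding proteins. IRF7, itself an interferon-stimulated gene, amplifies type I interferon production. In tumors this program has been linked to sensing of nucleic acids in the cytosol and to the recruitment of T cells. The treatment groups ask how HO-1 inhibition, chemotherapy and their combination change the tumor's RNA.

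The 39 genes were grouped by role. The IFIT proteins, which bind foreign RNA, were Ifit1, Ifit2 and Ifit3. The ISG15 system comprised Isg15, a ubiquitin-like modifier, Usp18, the protease that removes it, and Herc6, a ligase of the HERC family. The OAS family, which senses double-stranded RNA, comprised Oas1a, Oas2, Oas3, Oasl1 and Oasl2. Other antiviral effectors were Mx1, Mx2, Rsad2 (viperin), Cmpk2, Ifi44, Ifi27l2a, Ifi35, Rtp4, Bst2 (tetherin, which holds budding virions on the cell surface), Xaf1 and Trim30a. The nucleic acid sensors were Ddx58 (RIG-I), Ifih1 (MDA5), Dhx58 (LGP2) and Zbp1. The transcription factors were Irf1, Irf7, Irf9 and Stat2. Parp9, Parp14 and Dtx3l, of the ADP-ribosylation system, formed a group, and the interferon-inducible GTPases were Gbp2, Gbp3, Gbp7, Iigp1, Igtp and Irgm1.

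The promoters of 5 of these genes are given because the genes differed in how they varied between tumors, and because they differ in whether they hold the letters of these elements. Each run below is the 200 bases before a RefSeq transcript start (build GRCm38.p6), written 5′ to 3′ on the gene's strand, with motif letters in capitals. The ISRE was searched as GAAA, any 2 bases and GAAA again, and the GAS as TTC, any 3 bases and GAA, both on both strands.
Ifit1, chr19:34640689-34640888, plus strand, with 2 ISRE matches: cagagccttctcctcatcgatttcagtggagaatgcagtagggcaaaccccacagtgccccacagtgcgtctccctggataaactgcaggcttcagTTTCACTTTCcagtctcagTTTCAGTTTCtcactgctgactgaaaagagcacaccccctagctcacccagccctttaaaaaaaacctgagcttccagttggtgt
Isg15, chr4:156200819-156201018, minus strand, with 3 ISRE matches that overlap in 1 stretch: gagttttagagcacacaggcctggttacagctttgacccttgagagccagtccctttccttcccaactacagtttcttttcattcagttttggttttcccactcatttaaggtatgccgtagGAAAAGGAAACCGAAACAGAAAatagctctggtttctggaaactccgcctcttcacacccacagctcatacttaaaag
Gbp2, chr3:142620463-142620662, plus strand, with 1 ISRE match: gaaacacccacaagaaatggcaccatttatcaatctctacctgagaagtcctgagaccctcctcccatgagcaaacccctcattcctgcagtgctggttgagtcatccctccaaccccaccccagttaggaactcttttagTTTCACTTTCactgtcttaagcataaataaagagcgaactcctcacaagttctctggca
Irf1, chr11:53769814-53770013, plus strand, with 1 GAS match and no ISRE match (a window at another RefSeq start held neither): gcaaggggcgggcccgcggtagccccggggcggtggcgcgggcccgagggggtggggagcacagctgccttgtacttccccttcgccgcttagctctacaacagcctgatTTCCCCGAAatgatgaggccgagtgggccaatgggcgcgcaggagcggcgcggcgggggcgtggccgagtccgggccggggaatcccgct
Irf7, chr7:141266425-141266624, minus strand, with neither: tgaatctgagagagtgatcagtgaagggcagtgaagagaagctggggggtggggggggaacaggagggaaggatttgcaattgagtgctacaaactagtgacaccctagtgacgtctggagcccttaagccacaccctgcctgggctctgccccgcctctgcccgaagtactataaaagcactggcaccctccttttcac

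28 of the 39 genes had a promoter in the RefSeq table, in windows of 250 bases before to 50 bases after each start. ISRE letters were found in 16 of the 28 (57.1%), against 1079 of 27025 genes overall (3.99%). GAS letters were found in 7 of the 28 (25.0%), against 2582 of 27025 (9.55%). In Bst2 the GAS match overlapped an ISRE match. In Stat2 the ISRE letters lay farther upstream, 222 bases before the start, and in Irf9 neither was found in either of its windows. A match is a run of letters and not a measured binding site, and a window with none says nothing about binding elsewhere. Ifi27l2a, Oas2, Mx1, Mx2, Usp18, Rtp4, Dhx58, Zbp1, Iigp1, Parp9 and Parp14 had no matched entry.

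Read counts placed Irf7 highest among the members, with a mean of 98.8 CPM over the 30 tumors, followed by Bst2 at 80.0 CPM and Parp9 at 71.6 CPM. Per kilobase of exon the order was Ifi27l2a (107 CPM per kb), Bst2 (88.6), Isg15 (50.05), Rtp4 (26.7) and Irf7 (26.2). Neighbors in this order overlapped widely between tumors. Oas3 was the lowest tested member, at 0.595 CPM per kb, and was down to 1 read in gemcitabine replicate 3. All 37 tested members had at least 1 read in every library. The values of 12 tested members were never whole numbers, among them Ifit3, Oas1a, Irf7 and Parp9, so that part of their counts were estimates. Ifit3 and Oas1a have near-identical neighbors in the mouse genome, Ifit3b and Oas1g, so the division of reads between them is uncertain. Parp9 and Dtx3l overlap by 682 bases on opposite strands, Irf7 overlaps Phrf1 by 45 bases, Irf9 overlaps Rnf31 by 123 bases on the same strand, and Igtp lies within 7974 bases shared with Irgm2 on the same strand.

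The genomic positions of the genes described in full are those of GENCODE M21 on GRCm38 (mm10), and the counts cover all exons of each gene. Irf7 lies at chr7:141262706-141266481, Irf9 at chr14:55603571-55610030, Stat2 at chr10:128270559-128292849 and Irf1 at chr11:53770014-53778374. Isg15 lies at chr4:156199424-156200818, Ifit1 at chr19:34640871-34650009 and Ifi27l2a at chr12:103442167-103443680. Rsad2 lies at chr12:26442746-26456452, Ddx58 at chr4:40203773-40239828, Oas2 at chr5:120730333-120749853 and Oas3 at chr5:120753098-120777661. Bst2 lies at chr8:71534255-71537456, Parp9 at chr16:35938470-35972605 and Gbp2 at chr3:142620602-142638008.

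Tumors of the same treatment differed far more in these genes than in the typical gene. The within-group SD of the 37 members had a median of 0.79 on the log2 CPM scale (lowest 0.27 for Irf1, highest 1.71 for Oas2), against a median of 0.33 over all 13663 genes, and 34 of the 37 lay above that median. The ratio of the highest to the lowest tumor ran from 2.59 for Irf1 to 268 for Ifi27l2a, with a median of 11.5. The ratio of Oas3 rested on a tumor with 1 read. Differences between the 6 groups took a median of 15.3% of the variance of a member, against 20.5% of the variance of all tested genes.

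Irf7, the regulator that amplifies the type I response, showed this spread in every group. In vehicle the 5 tumors held 167, 72.5, 180, 157 and 64.5 CPM, and in 5-FU 119, 353, 78.0, 45.5 and 79.7 CPM. In gemcitabine they held 45.9, 69.9, 21.8, 187 and 48.8 CPM. A single tumor, 5-FU replicate 2, stood above all others, and the ranges of the 3 groups overlapped. With KCL-HO-1i alone Irf7 was at 23.2, 279, 39.3, 20.1 and 75.9 CPM. With KCL-HO-1i/5-FU it was at 53.8, 70.7, 92.8, 139 and 112 CPM, and with KCL-HO-1i/gemcitabine at 126, 16.0, 103, 63.8 and 59.8 CPM. KCL-HO-1i replicate 2 was again far above the rest of its group, and all 6 groups overlapped.

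Isg15, the ubiquitin-like modifier, followed the same tumors. Its levels were 73.0, 35.3, 60.5, 75.3 and 22.6 CPM in vehicle and 47.0, 117, 25.4, 20.5 and 22.2 CPM in 5-FU. In gemcitabine they were 17.5, 27.2, 8.15, 53.8 and 22.5 CPM. With KCL-HO-1i they were 9.83, 83.6, 22.2, 11.4 and 29.9 CPM. The highest tumor of each of these 3 treated groups was the one that was highest for Irf7. With KCL-HO-1i/5-FU Isg15 was at 19.8, 19.3, 89.4, 25.6 and 51.8 CPM, and with KCL-HO-1i/gemcitabine at 41.9, 10.96, 52.2, 15.6 and 23.3 CPM. Ifit1, the RNA-binding effector, ran from 2.11 CPM in gemcitabine replicate 3 to 82.0 CPM in 5-FU replicate 2, with group means between 13.1 ± 10.3 CPM in KCL-HO-1i/gemcitabine and 29.1 ± 30.5 CPM in 5-FU (SD, n = 5). The group SDs of Ifit1 were as large as most of the differences between the group means.

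**Figure D1:**
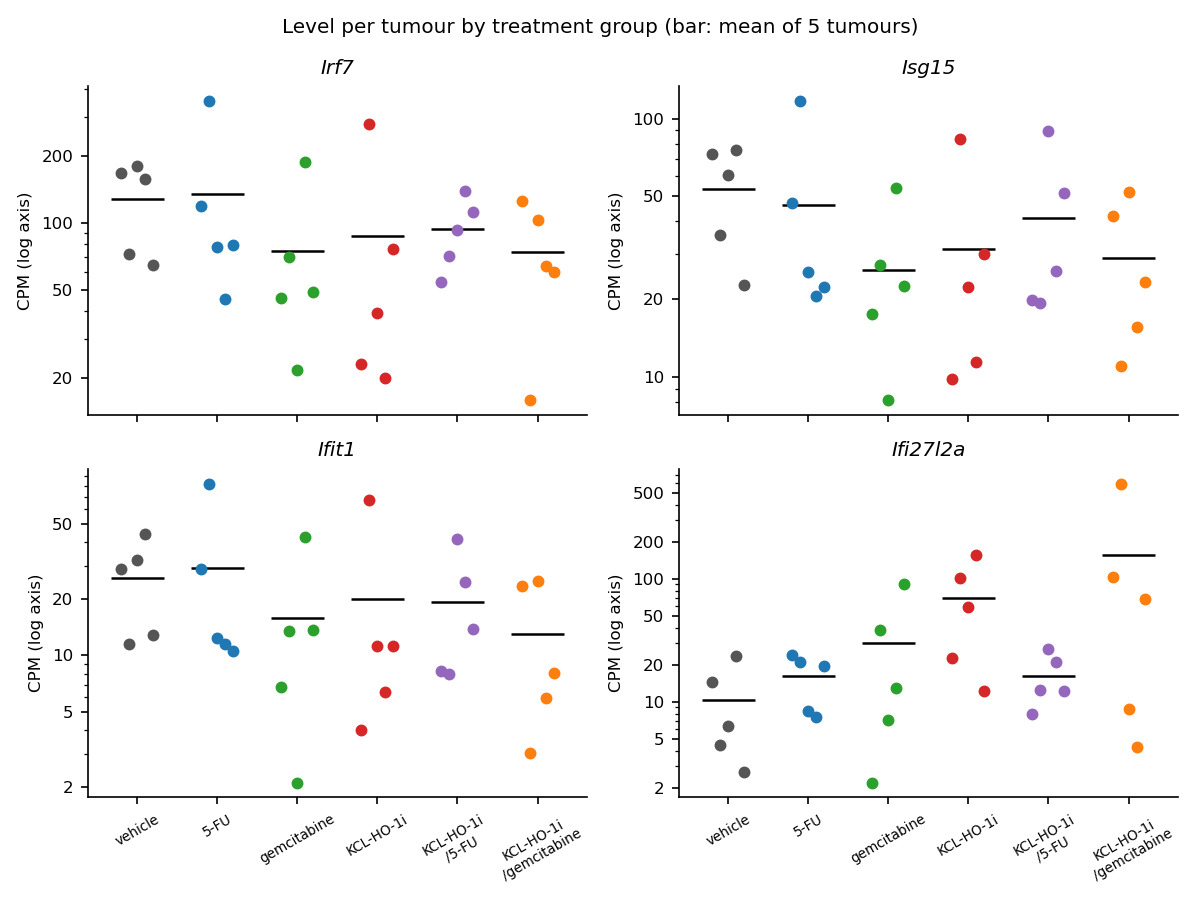
Levels of Irf7, Isg15, Ifit1 and Ifi27l2a in CPM on a log axis, with a point for each of the 30 tumors, by treatment group, and a bar at the mean of the 5 tumors of a group. All groups overlap for all 4 genes, 5-FU replicate 2 and KCL-HO-1i replicate 2 stand high for Irf7, Isg15 and Ifit1, and Ifi27l2a reaches 590.1 CPM in a KCL-HO-1i/gemcitabine tumor.

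The same tumors were high or low for nearly all members. A member score, the mean over the 37 genes of each gene's log2 deviation from its own mean over the 30 tumors, ran from -1.56 in gemcitabine replicate 3 to 1.63 in 5-FU replicate 2, a 9.12-fold span. The next highest tumors were KCL-HO-1i replicate 2 (1.39), KCL-HO-1i/5-FU replicate 3 (0.89), vehicle replicate 4 (0.87), vehicle replicate 3 (0.80) and gemcitabine replicate 4 (0.77). High tumors thus came from 5 of the 6 groups. The mean score was highest in vehicle (0.30), followed by 5-FU (0.24) and KCL-HO-1i/5-FU (0.098), and was -0.16 in both KCL-HO-1i and its combination with gemcitabine and -0.31 in gemcitabine. These group means spanned 0.61, less than the within-group SD of the score, 0.75. Tumors that shared a mouse code differed in some codes and not in others. The 7 tumors with code 76, from the 5-FU and gemcitabine groups, included both the highest and the lowest tumor, and the 4 tumors with code 70 ran from -0.57 to 1.39, whereas the 2 tumors with code 69, from the 5-FU and KCL-HO-1i groups, were at -0.63 and -0.67. Over all genes, tumors of the same code in different groups had a mean correlation of 0.062 in their deviations from the group means (24 pairs).

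**Figure D2:**
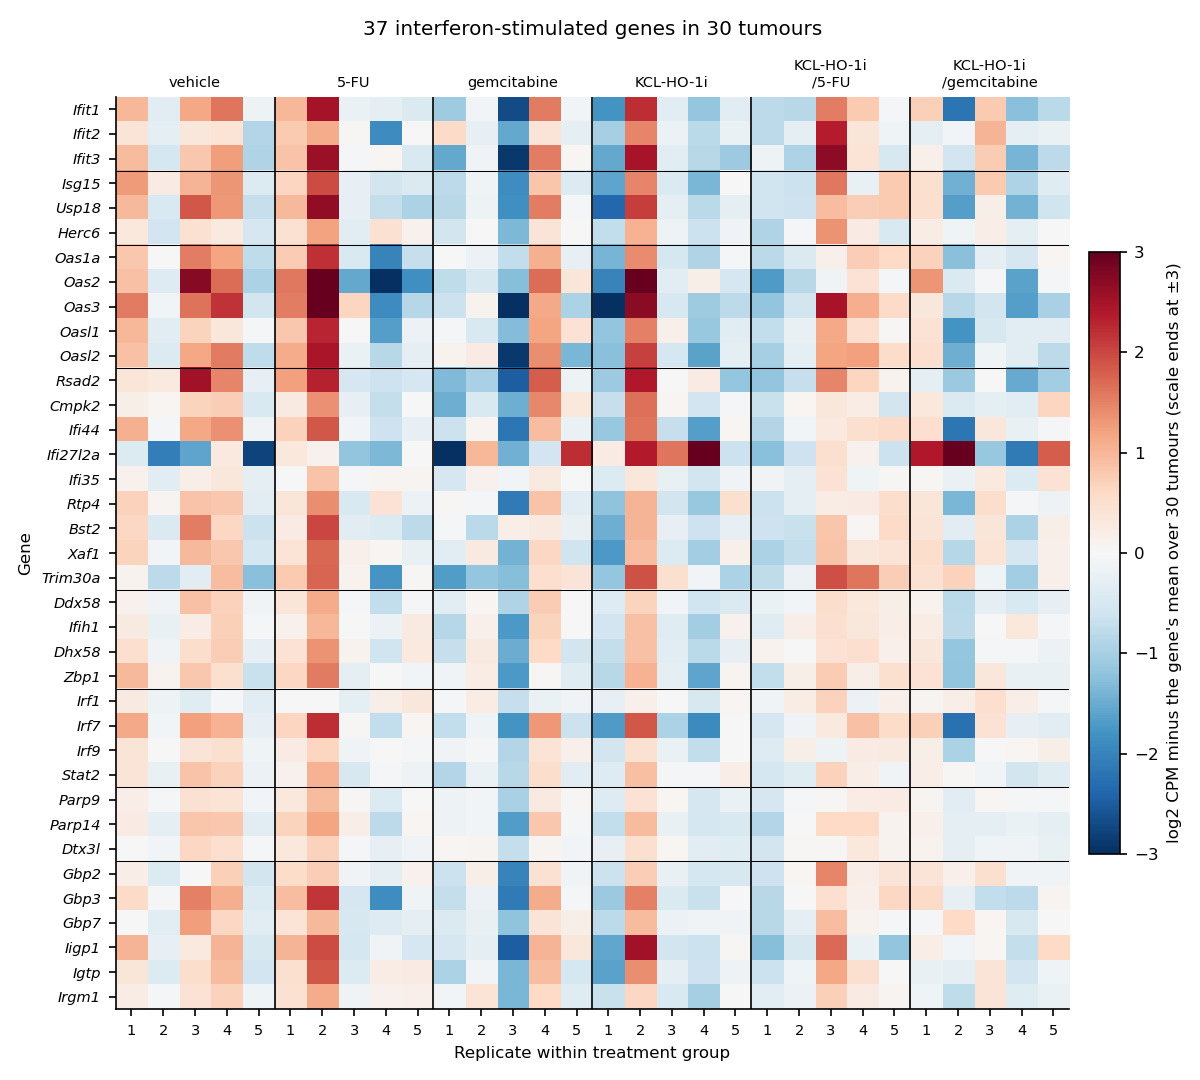
Heat map of the 37 tested genes (rows, grouped by role) in the 30 tumors (columns, grouped by treatment), colored by log2 CPM minus the gene's mean over the 30 tumors. Whole columns are red or blue: 5-FU replicate 2 and KCL-HO-1i replicate 2 are high and gemcitabine replicate 3 is low for most genes, whereas the rows of Ifi27l2a and Irf1 follow other tumors.

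Over the 30 tumors the median correlation between pairs of members (666 pairs) was r = 0.77, and 467 pairs (70.1%) had r over 0.7. It was 0.79 when group means were removed, and the median over all pairs of tested genes was -0.0072. These correlations are over 30 libraries that share a normalization, and genes are not independent replicates. Each member was also compared with the mean of the other 36: r was between 0.74 and 0.95 for 35 of the 37 (median over the 37, 0.88). Usp18 (0.95), Ifit1 (0.95) and Oas3 (0.95) followed the others most closely. The exceptions were Irf1 (0.35) and Ifi27l2a (0.11).

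**Figure D3:**
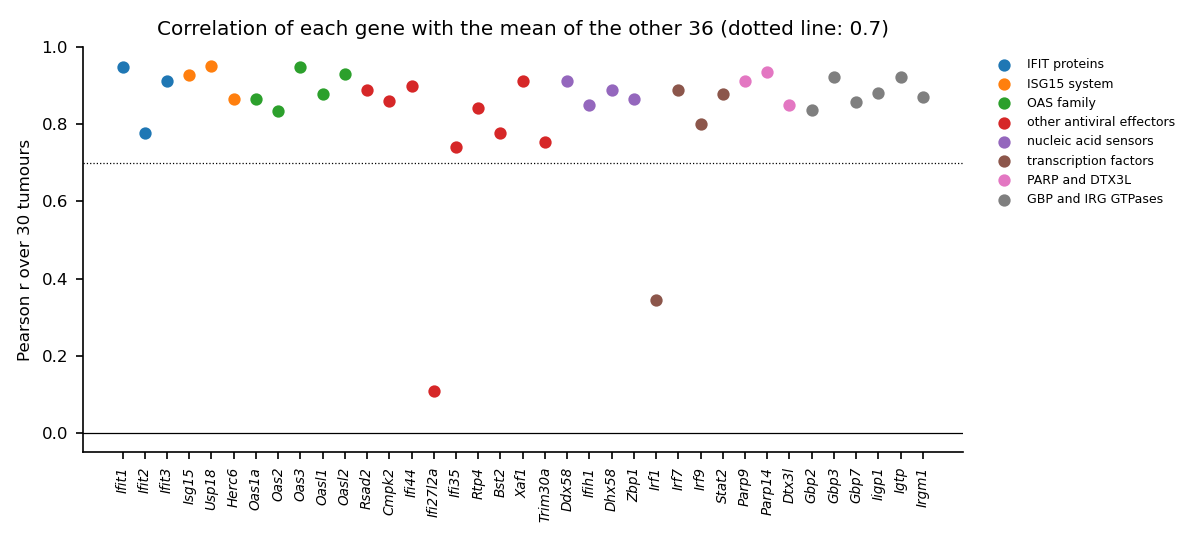
Pearson correlation over 30 tumors of each of the 37 genes with the mean log2 level of the other 36, colored by role, with a dotted line at 0.7. All but Irf1 (0.35) and Ifi27l2a (0.11) lie above the line.

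The closest pair was Ifi44 and Irf7 (r = 0.97), followed by Ifi44 and Irf9 (0.95) and by Ifit1 and Usp18 (0.95). Irf7 and Irf9, of the transcription factors, had r = 0.91, and Irf7 and Stat2 had r = 0.72. Rsad2 and Cmpk2, neighbors on chromosome 12, had r = 0.81, and Parp9 and Dtx3l, neighbors on chromosome 16 that overlap, had r = 0.92. Within families, Ifit1 with Ifit3 had r = 0.92, Oasl1 with Oasl2 0.85, and Gbp3 with Gbp7 0.84. All 8 role groups moved with the score, the PARP and DTX3L group least closely (r = 0.93) and the ISG15 system most closely (0.98), where each group is itself part of the score.

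Genes outside the list followed the same tumors. Among the 60 genes of the whole table whose log2 levels were most like the member score, 35 were members and 25 were not, and the nearest gene of all was Ddx60, a helicase (r = 0.97). 11 of the 25 were in a list of other interferon-pathway genes, among them Ifit3b (0.96), Parp12 (0.94), Irgm2 (0.94), Adar (0.91), the RNA-editing deaminase, and Eif2ak2 (0.89), which encodes the double-stranded RNA kinase PKR. Irf1 ranked 693 and Ifi27l2a 2919. Of all 13663 genes, 69 had r over 0.7 with the score, including the 35 members.

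The pathway upstream of the members was read in lists of ligands, receptors and genes that induce interferon or restrain its induction. All 14 interferon ligand genes on the list were at or near 0: 8 had no reads, and Ifnb1 (5 reads), Ifng (8), Ifne (7), Ifnl3 (2), Ifnab (1) and Ifnk (1) had 24 reads together over 30 libraries. A ligand read at this depth could not be compared between groups. All 6 receptor genes were expressed in every tumor, Ifnar1 at a mean of 77.8 CPM (56.8 to 107), Ifnar2 at 71.7 CPM, Ifngr1 at 83.2 CPM, Ifngr2 at 73.8 CPM, Il10rb at 50.6 CPM and Ifnlr1 at 22.6 CPM. None of the 6 followed the member score closely (r of 0.073 to 0.24). Of the 13 genes listed for the induction of interferon and its control, 1 had r over 0.7 with the score. It was Adar (0.91), whose RNA editing restrains the sensing of the cell's own double-stranded RNA. The next was Tlr3 (0.65). The chemokine gene Cxcl10, an interferon-gamma target that draws T cells, held 98 reads in all and Cxcl11 24 reads, and both were below the filter.

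Treatment was then compared in 13 contrasts and in a test of any difference among the 6 groups, with edgeR's quasi-likelihood test and Benjamini-Hochberg adjustment over 13663 genes. No member passed an adjusted p of 0.05 in any of the 14 tests. The share of all genes that passed was 0% in 12 of the 13 contrasts, 0.0586% in the KCL-HO-1i average (3 groups with against 3 without the inhibitor) and 0.651% in the test of any difference. Comparisons with vehicle share the 5 vehicle tumors and are not independent of each other. DESeq2 called 1 member, Ifi27l2a, in 3 of the 14 tests (KCL-HO-1i/gemcitabine against vehicle, the KCL-HO-1i average and any difference), where it called 6.46%, 8.34% and 6.98% of all genes, and limma-voom called 0 in all 14. Counts at an unadjusted p under 0.05 follow for each contrast.

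For the single agents, 0 of 37 members had an unadjusted p under 0.05 in 5-FU against vehicle (3.89% of all genes), 0 in gemcitabine against vehicle (3.83%) and 1 in KCL-HO-1i against vehicle (9.43%). The median log2 fold change of the members was 0.12 with 5-FU, -0.46 with gemcitabine and -0.37 with KCL-HO-1i, where the median of all genes lay between -0.011 and 0.030. Under gemcitabine 36 of 37 members had a negative estimate, the exception being Ifi27l2a, and under KCL-HO-1i 30 of 37 did. Since the members move together from tumor to tumor, these counts of signs are not 37 independent observations. Stat2 had the smallest p under gemcitabine (log2 fold change -0.61 ± 0.31, SE, edgeR unadjusted p = 0.0583, adjusted p = 0.941).

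These medians moved when single tumors were left out. Without 5-FU replicate 2 the median under 5-FU was -0.37 in place of 0.12. Without gemcitabine replicate 4 the median under gemcitabine was -0.82, and 6 members, all lower, had an unadjusted p under 0.05 (9.60% of all genes). Without gemcitabine replicate 3, the lowest tumor, that median was -0.26. Without KCL-HO-1i replicate 2, the tumor with the second highest score, the median under KCL-HO-1i was -0.88, and 20 of 37 members had an unadjusted p under 0.05, 19 of them lower, against 10% of all genes. No member passed the adjusted threshold in that fit either (smallest adjusted p = 0.338 in edgeR). Without KCL-HO-1i replicate 4 the median under KCL-HO-1i was -0.22. KCL-HO-1i replicate 2 belongs to its group by its label, and with it in the fit 1 member was past the unadjusted threshold.

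For the combinations, 0 members had an unadjusted p under 0.05 in KCL-HO-1i/5-FU against vehicle (17.6% of all genes) and 3 in KCL-HO-1i/gemcitabine against vehicle (19.8% of all genes). The medians were -0.20 and -0.49. The former was -0.45 when KCL-HO-1i/5-FU replicate 3 was left out and -0.088 when replicate 1 of that group was. The 3 were Ifi27l2a, higher, and Rsad2 and Ddx58, lower. In the averaged contrasts, 1 member was past the unadjusted threshold in the KCL-HO-1i average (23.0% of all genes, median -0.20) and 0 in the chemotherapy average, 4 groups with against 2 without a chemotherapy (7.18%, median -0.095). Without KCL-HO-1i replicate 2, 13 members were past it in the KCL-HO-1i average, 12 of them lower (22.6% of all genes), the median of that average was -0.41 and the median of the chemotherapy average was 0.18. Without 5-FU replicate 2 these medians were -0.086 and -0.22.

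Adding the inhibitor to a chemotherapy gave 1 member in KCL-HO-1i/5-FU against 5-FU (11.4% of all genes) and 1 in KCL-HO-1i/gemcitabine against gemcitabine (13.5%). The median in the former was -0.26, and it was 0.16 without 5-FU replicate 2 and -0.48 without KCL-HO-1i/5-FU replicate 3. The median in the latter was 0.046, and it was -0.17 without gemcitabine replicate 3 and 0.38 without gemcitabine replicate 4. Adding a chemotherapy to the inhibitor gave 1 member for 5-FU (16.9%) and 0 for gemcitabine (2.66%). Without KCL-HO-1i replicate 2 the former count was 5, all higher (16.4% of all genes), and the median of the latter was 0.42 in place of -0.13. The interactions, which ask whether the inhibitor's effect differs with chemotherapy, gave 0 members for 5-FU (8.53%) and 0 for gemcitabine (1.34%). The test of any difference among the 6 groups gave 1 member, Ifi27l2a, against 18.7% of all genes. In each contrast the members passed less often than or about as often as the background, apart from the fits without single tumors given above, and none is a result about the list.

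**Figure D4:**
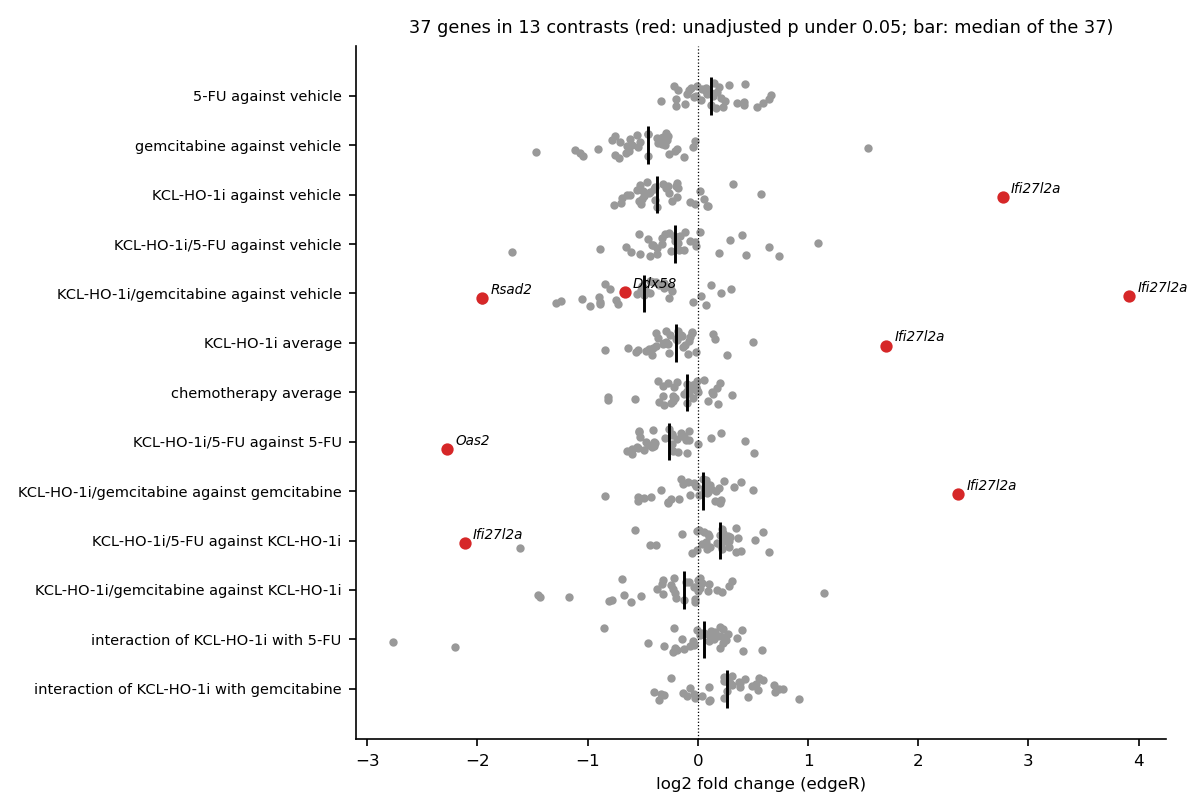
log2 fold changes of the 37 genes in 13 contrasts (edgeR), with genes of unadjusted p under 0.05 in red and named, and a bar at the median of the 37. Ifi27l2a is named in 5 contrasts, and the medians run from -0.49 to 0.27.

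Among the transcription factors, Irf7 had a log2 fold change of -0.37 ± 0.38 in the KCL-HO-1i average (SE, 95% interval -1.15 to 0.42, edgeR adjusted p = 0.607) and by -0.21 ± 0.40 in the chemotherapy average (-1.03 to 0.61, adjusted p = 0.915). Irf9 had an estimate of -0.18 ± 0.14 in the KCL-HO-1i average (-0.46 to 0.096) and Stat2 by -0.07 ± 0.18 (-0.43 to 0.30). Irf1 had an estimate of 0.16 ± 0.10 (-0.044 to 0.36), which was -0.40 (unadjusted p = 0.0885) with mouse code as a covariate. For the effectors, Isg15 had an estimate of -0.26 ± 0.35 (-0.99 to 0.46), Ifit1 by -0.41 ± 0.45 (-1.34 to 0.51) and Gbp2 by 0.13 ± 0.21 (-0.31 to 0.57). All these intervals include 0, and for Irf7 and Ifit1 they also include a change of more than 1 log2 unit, so that neither a fall of that size nor no change was distinguishable in these tumors. Leaving out 1 tumor moved Irf7 between -0.76 and -0.13, Isg15 between -0.53 and -0.044 and Ifit1 between -0.86 and -0.13, each lowest without KCL-HO-1i replicate 2 and highest without 5-FU replicate 2. By role, the median estimate in this contrast ran from -0.47 for the OAS family to -0.094 for the IFIT proteins. Bst2 had group means from 65.1 ± 43.9 CPM in KCL-HO-1i to 102 ± 63.16 CPM in vehicle, and Parp9 from 63.7 ± 17.9 CPM in gemcitabine to 82.5 ± 31.5 CPM in 5-FU (SD, n = 5). The estimates of Bst2 (-0.32 ± 0.29), Parp9 (-0.15 ± 0.13) and Oas3 (-0.54 ± 0.58) in the KCL-HO-1i average had intervals that include 0.

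Rsad2, the viperin gene, was at 9.49, 9.01, 42.9, 20.5 and 6.17 CPM in vehicle and at 6.01, 3.32, 7.35, 2.49 and 3.49 CPM in KCL-HO-1i/gemcitabine. The groups overlapped only between 6.17 and 7.35 CPM. Its log2 fold change was -1.95 ± 0.81 (SE, edgeR unadjusted p = 0.0235, adjusted p = 0.173) and -1.35 (unadjusted p = 0.109) without vehicle replicate 3, the tumor with 42.9 CPM. Ddx58, the sensor RIG-I, was at 53.7, 45.2, 89.4, 79.5 and 45.1 CPM in vehicle and at 52.9, 27.7, 39.7, 35.6 and 41.5 CPM in KCL-HO-1i/gemcitabine. Its log2 fold change was -0.66 ± 0.31 (unadjusted p = 0.0403, adjusted p = 0.227 in edgeR). Without vehicle replicate 3 it was -0.53. Ddx58 was past the unadjusted threshold neither in that fit nor without KCL-HO-1i/gemcitabine replicate 4.

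Oas2, of the OAS family, was at 19.7, 104, 2.13, 0.57 and 1.70 CPM in 5-FU and at 1.88, 3.56, 5.99, 8.81 and 6.19 CPM in KCL-HO-1i/5-FU. The 5-FU group held both the highest and the lowest tumor of the 30. Its log2 fold change was -2.28 ± 1.08 (SE, edgeR unadjusted p = 0.0452, adjusted p = 0.426), and without 5-FU replicate 2, the tumor with 104 CPM, it was -0.18 (adjusted p = 0.973 in edgeR).

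Ifi27l2a, a small interferon-inducible membrane protein, was the member with the largest differences between treatments, and they were not shared by the other members. It was at 14.6, 4.43, 6.33, 23.6 and 2.68 CPM in vehicle, at 24.1, 21.0, 8.36, 7.49 and 19.6 CPM in 5-FU and at 2.20, 38.4, 7.05, 12.96 and 90.2 CPM in gemcitabine. With KCL-HO-1i it was at 22.8, 100.5, 58.8, 156 and 12.2 CPM. With gemcitabine added to the inhibitor it was at 103, 590.1, 8.76, 4.30 and 68.6 CPM, and with 5-FU added at 7.99, 12.5, 27.04, 21.0 and 12.2 CPM. The tumors with 58.8 CPM or more were all in groups given gemcitabine, KCL-HO-1i or both, and each of these groups also held tumors within the range of vehicle.

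Its log2 fold change was 2.77 ± 1.01 in KCL-HO-1i against vehicle (SE, edgeR unadjusted p = 0.0107, adjusted p = 0.387) and 3.91 ± 1.05 in KCL-HO-1i/gemcitabine against vehicle (unadjusted p = 0.000963, adjusted p = 0.0828). In the KCL-HO-1i average it was 1.71 ± 0.56 (unadjusted p = 0.0051, adjusted p = 0.0811 in edgeR). It was 2.36 in KCL-HO-1i/gemcitabine against gemcitabine (unadjusted p = 0.023, adjusted p = 0.32) and -2.12 when 5-FU was added to KCL-HO-1i (unadjusted p = 0.0395, adjusted p = 0.269). The test of any difference among the 6 groups gave an unadjusted p of 0.00153 (adjusted p = 0.0931 in edgeR). KCL-HO-1i/gemcitabine replicate 2, with 590.1 CPM, carried much of the combination's value: without it the change against vehicle was 2.14 and that against gemcitabine 0.61.

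The level of Ifi27l2a followed that of adipocyte markers. Over the 30 tumors its log2 CPM had r = 0.91 with the mean log2 level of 7 adipocyte markers (Spearman's rho = 0.89, permutation p = 1e-05 for each, the smallest that 100000 permutations can give, adjusted over 33 relations p = 0.00011). The value was 0.88 without the 2 tumors farthest from the median of the marker score, 0.89 with group means removed and 0.82 among the 7 tumors of mouse code 76. The genes whose levels were most like it over the 30 tumors were Plin4 (r = 0.92), Tshr (0.92), Lep (0.92), Ces1f (0.92) and Retn (0.92), of which Plin4, Lep and Retn are adipocyte genes. It also had r = 0.76 with fibroblast markers, 0.75 with dendritic cell markers, 0.74 with endothelial markers and 0.68 with macrophage markers (adjusted permutation p between 0.00011 and 0.000396 over 33 relations, without the 2 farthest tumors r between 0.64 and 0.73). Skeletal muscle (r = 0.53, adjusted permutation p = 0.0156, but 0.24 without the 2 farthest tumors) and neutrophil markers (r = 0.50, adjusted 0.0235) also passed by Pearson's r. By Spearman's rho the neutrophil markers passed (0.48, adjusted permutation p = 0.043) and skeletal muscle did not (0.37, adjusted 0.21). With markers of T and NK cells it had r = 0.12, and with those of mammary epithelium -0.20.

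The adipocyte markers differed in 4 of the 5 contrasts in which Ifi27l2a had an unadjusted p under 0.05. At an unadjusted p under 0.05, all 7 were higher in KCL-HO-1i against vehicle (9.43% of all genes in either direction). All 7 were also higher in KCL-HO-1i/gemcitabine against vehicle (19.8%) and in the KCL-HO-1i average (23.0%). When 5-FU was added to KCL-HO-1i all 7 were lower (16.9%, edgeR). Their median log2 fold changes there were 3.95, 4.50, 2.21 and -3.92. In the other contrast, KCL-HO-1i/gemcitabine against gemcitabine, 0 of the 7 were past that threshold (13.5% of all genes). All 7 estimates there were positive and their median was 2.25. In gemcitabine against vehicle, where Ifi27l2a was at 1.55 and not past the threshold, 1 of the 7 markers was (3.83% of all genes). All 7 estimates were positive there too, with a median of 2.26. The summed level of the 7 markers ran from 38.9 to 213 CPM in vehicle, from 39.2 to 5947 CPM in KCL-HO-1i and from 24.4 to 4882 CPM in KCL-HO-1i/gemcitabine, and Adipoq, Plin1, Cidec and Lep were at 0 in some tumors, whereas Fabp4, Lipe and Pparg had reads in all 30. Their part in the result of Ifi27l2a was not tested. When the 2 tumors with the highest adipocyte marker score, KCL-HO-1i replicate 4 and KCL-HO-1i/gemcitabine replicate 2, were left out, the change of Ifi27l2a in the KCL-HO-1i average was 0.95 (edgeR unadjusted p = 0.0664, adjusted p = 0.318). These were also the 2 tumors with the highest Ifi27l2a of the 30 (156 and 590.1 CPM), and both were given the inhibitor. Leaving them out lowers this average in any case, so the fit cannot show the part of the markers.

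**Figure D5:**
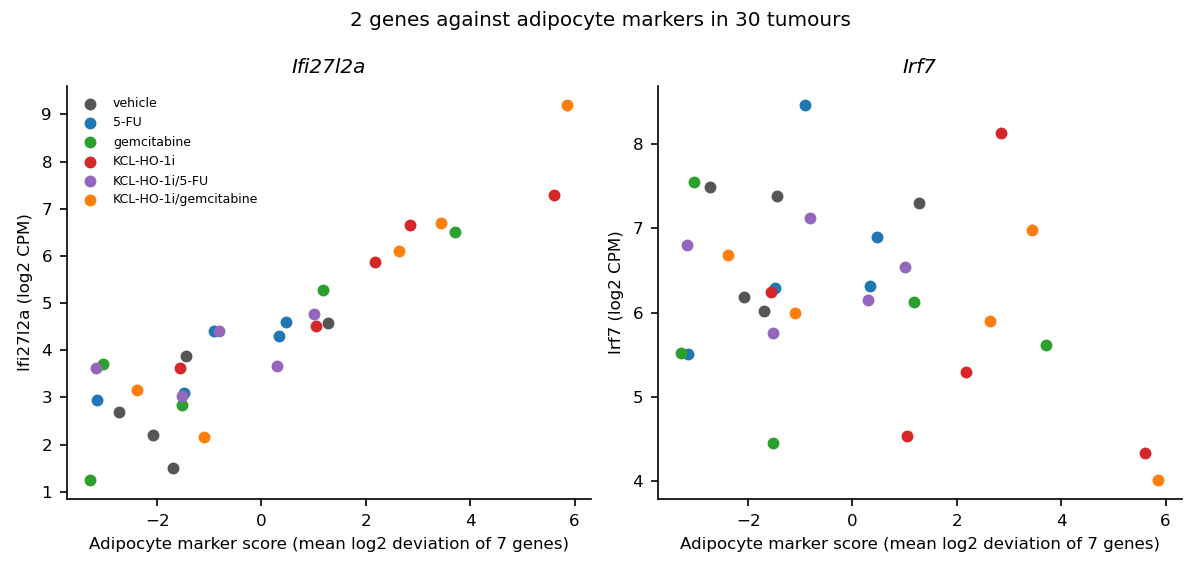
log2 CPM of Ifi27l2a and of Irf7 against the adipocyte marker score (mean log2 deviation of 7 genes), with a point for each of the 30 tumors colored by treatment. Ifi27l2a rises along the score (r = 0.91), and Irf7 has no such relation (r = -0.33, and -0.024 without the 2 farthest tumors).

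Irf7, from among the members that move together, was examined in the same way. Its r was -0.33 with adipocyte markers (permutation p = 0.0718), 0.084 with T and NK cell markers (p = 0.661), -0.16 with macrophage markers (p = 0.395), -0.013 with plasmacytoid dendritic cell markers (p = 0.947) and 0.20 with mammary epithelial markers (p = 0.291). Its r of -0.42 with skeletal muscle markers (permutation p = 0.0221, adjusted 0.0866) was -0.14 without the 2 farthest tumors. With endothelial markers Irf7 had r = -0.37 (permutation p = 0.0432, adjusted 0.13) and with fibroblast markers -0.34 (p = 0.0694, adjusted 0.158). None of the 11 marker lists passed the adjusted threshold for Irf7. The member score had r of 0.11 with T and NK cell markers and 0.11 with macrophage markers. With adipocyte, endothelial and fibroblast markers the score had r of -0.0007, -0.006 and -0.024. The values of Irf7 are therefore not those of the score. The T and NK cell list was scarcely read, with 2.73 to 27.04 CPM in all over its 11 genes in the table, of which 9 passed the filter. Of the 7 genes of the plasmacytoid dendritic cell list, 4 passed the filter. Siglech had a median of 0.59 CPM, Ccr9 of 0.12 CPM and Klk1 of 0 CPM, against 67.7 CPM for Tcf4 and 24.2 CPM for Ly6d. The r with that list therefore says little about cells of that type.

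The promoter printed above for Irf1, an early target of interferon-gamma, has GAS letters and no ISRE letters. A link of such letters to variation between tumors was not tested. Irf1 varied least of all members. It was at 64.7, 48.6, 41.9, 53.2 and 42.7 CPM in vehicle, at 45.7, 60.1, 54.1, 38.5 and 56.3 CPM in KCL-HO-1i and at 56.9, 61.7, 77.002, 61.7 and 52.2 CPM in KCL-HO-1i/gemcitabine. The group means of all 6 groups lay between 49.2 ± 10.6 CPM in gemcitabine and 61.9 ± 9.32 CPM in KCL-HO-1i/gemcitabine (SD, n = 5), and the groups overlapped. The gene whose level was most like Irf1 was Psmb10, an immunoproteasome subunit (r = 0.84). The r of Irf1 with Irf7 was 0.28. None of the 11 marker lists passed the adjusted threshold for Irf1. Its r was -0.42 with mammary epithelial markers (permutation p = 0.0236, adjusted 0.0866) and 0.36 with macrophage markers (p = 0.0477, adjusted 0.131). With T and NK cell markers it was 0.38 (permutation p = 0.0387, adjusted 0.128). That value was 0.21 without the 2 farthest tumors and -0.66 among the 7 tumors of mouse code 76. Irf1 overlaps the antisense gene Gm17334 by 907 bases.

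The receptor genes were compared in the same contrasts. With KCL-HO-1i alone against vehicle 0 of the 6 had an unadjusted p under 0.05 (9.43% of all genes). The median log2 fold change of the 6 was 0.10. Adding the inhibitor to 5-FU gave 2 of 6 higher (11.4% of all genes) and adding it to gemcitabine gave 2 (13.5%). Against vehicle, 4 of 6 were higher in KCL-HO-1i/5-FU (17.6% of all genes) and 3 in KCL-HO-1i/gemcitabine (19.8%). Receptors were also higher in contrasts of chemotherapy: 2 of 6 in the chemotherapy average (7.18% of all genes). Adding 5-FU to KCL-HO-1i gave 2 (16.9%) and adding gemcitabine 1 (2.66%). In the KCL-HO-1i average, 5 of the 6 receptor genes had a higher level at an unadjusted p under 0.05 (23.0% of all genes in either direction), and none passed the adjusted threshold. Ifnar2, a chain of the type I receptor, had a log2 fold change of 0.28 ± 0.07 (SE, edgeR unadjusted p = 0.000719, adjusted p = 0.0525), Ifngr1 by 0.32 ± 0.13 (adjusted p = 0.129) and Ifngr2 by 0.19 ± 0.07 (adjusted p = 0.103). The 10 macrophage markers summed to 148 to 1356 CPM over the 15 tumors without the inhibitor and to 501 to 2287 CPM over the 15 with it, and their part in the receptors' estimates was not tested.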

How the data were processed

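The authors prepared directional RNA libraries from 30 tumors and, per the labels, used FastQC 0.11.9, STAR 2.7.9a, Salmon 1.9.0 and DESeq2 with genome build mm10. The annotation release is not given in the sources used here. The deposited file holds expected counts per gene for all 30 samples (38.0% of values are not whole numbers), and the strand setting of the counting was not given. The values were rounded to whole counts here. Groups were taken from the sample titles. The 39 genes and all other lists were chosen with earlier results of these data known, so neither their choice nor any pattern in them is independent evidence.

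Genes were kept with filterByExpr of edgeR 4.0.16 (minimum count 10, by group) in R 4.3.3, normalized by TMM and fitted with 6 group means over all 30 libraries. The quasi-likelihood test was used, and p-values were adjusted by Benjamini-Hochberg over 13663 genes. CPM use TMM library sizes and log2 CPM a prior count of 2. SEs were derived from the F statistic. The series' design gives 30 mice, 1 for each library. No 2 libraries of a group agreed within sampling noise (lowest chi-square per degree of freedom 20.7 over 60 pairs). That check can find a repeated library but cannot show whether 2 tumors came from the same animal. Likeness of tumors that share a mouse code within a group was not examined. The floor of 3 counts covers counting error only. Relations of 3 members with 11 marker lists were tested by permutation (100000 draws, two-sided) in Python 3.11.15, as the mean log2 deviation of each list. Scripts were tested on simulated data.

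Genes described in full were those past a threshold, up to 3 with the smallest unadjusted p in a contrast, the 3 highest means, the 3 largest within-group SDs, and Irf7, Irf9, Stat2, Irf1, Isg15, Ifit1 and Gbp2. Of the pathway lists, receptors and ligands with a read were given by this rule, and 1 gene due by it is not reported here. Genes named for likeness to the member score, Cxcl10 and Cxcl11 lay outside it and were picked with their values in view. Alternatives were RLE size factors, DESeq2 1.42.0, limma-voom 3.58.1 with quality weights, omission of the low-count filter, a filter at a mean of 50 counts, a replicate block, a covariate for the mouse code (in the 2 averaged contrasts), fits to the compared groups alone and leaving out each library. Leaving out the 2 tumors with the highest adipocyte marker score was chosen after seeing the data. The deposited table holds no columns that were left unused.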

Additional observations from a re-analysis of the deposited data

Results flagged for a closer look

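Irf9, the DNA-binding partner of STAT2, was at 32.3 CPM in KCL-HO-1i/gemcitabine replicate 2, the lowest of the 30 tumors, and the next lowest tumor of that group was at 62.5 CPM. On the log2 scale the gap took 0.853 of the group's range, above Dixon's critical value of 0.71 for 5 samples. It was the only value past that limit among 90 group comparisons of the 14 genes described in full and the member score, where chance alone gives about 1 in 20. The same tumor had the highest adipocyte marker score (5.86) and the lowest level of Irf7, 16.0 CPM. None of the 42 pairs of backgrounds compared for the inhibitor's effect on these genes had all tumors moving in opposite directions.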

How the results depend on the processing

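No member passed the adjusted threshold in any of the 14 tests under RLE size factors, limma-voom, omission of the filter, a filter at a mean of 50 counts, fits to the compared groups alone (11 of the tests) or without the 2 tumors of highest adipocyte marker score (chosen after seeing the data), nor in the 2 averages with mouse code as a covariate. DESeq2 called 1 member, Ifi27l2a, in KCL-HO-1i/gemcitabine against vehicle (adjusted p = 0.00325), in the KCL-HO-1i average (0.0224) and in the test of any difference (0.00253), where it called 883, 1139 and 953 genes in all (6.46%, 8.34% and 6.98%). Leaving out single libraries gave 0 to 1 member in these 3 tests and 0 in the rest, and the 1 was Ifi27l2a, called without gemcitabine replicate 5 (average and any difference), KCL-HO-1i/gemcitabine replicate 3 (any difference) or KCL-HO-1i/gemcitabine replicate 4 (combination against vehicle and any difference). Across 38 alternatives its adjusted p ran from 0.0224 to 0.498 in the KCL-HO-1i average and from 0.00325 to 0.298 in the combination against vehicle. The cause was not tested.

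The replicate block gave 0 members called in all 14 tests. Same-numbered tumors of different groups did not deviate together (mean correlation 0.00284 over 75 pairs, 22 over 0.1), so the numbers do not pair them. With the block, Ifi27l2a had a log2 fold change of 3.32 in the combination against vehicle and 1.59 in the average, and Oas2 -1.22 in KCL-HO-1i/5-FU against 5-FU.

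Estimates near 0 changed sign in places. With mouse code as a covariate Irf1 was at -0.40 in the KCL-HO-1i average and Irf9 at 0.010 in the chemotherapy average. With limma-voom Gbp2 was at -0.00417 in the KCL-HO-1i average, and Irf7 was at 0.10 and Irf9 at 0.076 in the chemotherapy average. Over the libraries left out in turn, the KCL-HO-1i average ran from -0.16 (without KCL-HO-1i replicate 2) to 0.027 for Stat2 and from -0.0036 to 0.20 for Gbp2. The chemotherapy average ran from -0.40 to 0.36 for Irf7, from -0.076 to 0.082 for Irf9, from -0.42 to 0.14 for Isg15 and from -0.52 to 0.34 for Ifit1, each highest without KCL-HO-1i replicate 2. The cause was not tested.

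The median correlation between members ran from 0.74 to 0.79 over the libraries left out in turn. At 10067577 to 13622264 counts per library, Mx1, Mx2, the interferon ligands, Cxcl10 and Cxcl11 were too low to compare.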
